A study of Mus musculus with 4 samples.

Results

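Cytosolic ribosomal protein genes encode the proteins of the ribosome that translates nuclear-encoded mRNA. They were chosen by symbol alone, as every gene named Rpl or Rps with a number and at most the letter a, l or x, plus Rplp0, Rplp1, Rplp2 and Rpsa. This gave 80 of the 31053 gene symbols, 49 of the large subunit and 31 of the small subunit. In the annotated nuclei 78 of them had at least 1 UMI (unique molecular identifier, a count of captured mRNA molecules), and 77 had at least 40 UMIs. Rpl13 and Rpl10l were listed at 0 in every library, and Rpl39l had 15 UMIs in all. Rpl13 overlaps the gene Gm20388 on the same strand. It also shares 82.6% of the 60-base stretches near its 3′ end with other annotated genes, all 10 of them pseudogenes. A count of 0 is therefore not read as absence of its mRNA, and the part of counting in it was not tested. The pattern leaves out Rps3a1 and Fau, which encodes a ribosomal protein fused to a ubiquitin-like protein, and these were counted apart.

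A ribosomal protein is made in the cytoplasm, imported into the nucleus and assembled with ribosomal RNA in the nucleolus, and surplus copies are degraded. Most mRNAs of this family begin with a stretch of pyrimidines, the 5′ terminal oligopyrimidine tract, through which insulin and nutrients acting on mTORC1 control their translation rather than their amount. Rps6, the substrate of S6 kinase, is widely used in the hypothalamus as a phosphorylation marker of active neurons. In nuclei these mRNAs are seen on their way to the cytoplasm, so a nuclear level is not the level of the mRNA being translated.

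Wild-type mice with free access to chow received insulin or saline, and nuclei of their mediobasal hypothalamus were sorted by flow cytometry and sequenced with the 10x 3′ method. The 4 libraries are 2 Insulin and 2 Saline, with 1 of each in what the deposited table calls run 230 and run 232. Dose, route, time, age and the number of mice per library are not in the labels, and p-values here reflect no more than how far the 4 libraries lie apart, which may be technical. The Insulin libraries held 8352 (run 230) and 9796 (run 232) annotated nuclei, and the Saline libraries 9473 (run 230) and 8902 (run 232), with 63590421 to 71391593 UMIs per library. The run coincides with sex. Xist, the RNA of the inactive X chromosome, was at 4.88 CPM in the Insulin library and 4.53 CPM in the Saline library of run 230, against 1713 and 1614 CPM in those of run 232, so run and sex cannot be told apart. CPM (counts per mega-UMI) are a gene's UMIs scaled to the same total in every library and group of nuclei. Libraries shared 318 barcodes of 16 bases, 179 of them between the libraries of run 230 and 65 between those of run 232.

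The authors' cell type labels were used, and most fitted their markers. Nuclei annotated Endothelial did not: Cldn5 and Pecam1, which mark endothelium, were at 1.69 and 3.87 CPM in them, against 538 and 195 CPM in nuclei annotated Mural Cell. They held instead the highest Rax (84.4 CPM) and Col23a1 (2423 CPM) of all types. Nuclei annotated Mural Cell held the pericyte genes Pdgfrb (525 CPM) and Rgs5 (598 CPM) together with the endothelial markers. These annotations are therefore given below as names only. Nuclei annotated Microglia held Csf1r at 402 CPM and also the neuronal Syt1 at 808 CPM.

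The promoters show what the family shares in sequence. RefSeq starts on GRCm38.p6 were at hand for 60 of the 80 genes. Windows of 60 bases, 40 before the annotated start and 20 after it, are shown for Rpl28 and Rpl35a, whose ratio between runs was among the 4 highest, for Rps6, and for Rpl6 and Rpl37, which hold the ETS core. In Rpl28, Rpl35a and Rps6 capitals mark each pyrimidine hexamer that was searched, which are CTTTCC and also CTCTTT and also CTTCCT and also CTTTTC, where these may overlap. In Rpl6 and Rpl37 they mark the ETS core CCGGAAG.
Rpl28 (chr7:4792925-4792984, plus strand): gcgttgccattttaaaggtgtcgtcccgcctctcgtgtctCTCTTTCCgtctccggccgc
Rpl35a (chr16:33056442-33056501, plus strand): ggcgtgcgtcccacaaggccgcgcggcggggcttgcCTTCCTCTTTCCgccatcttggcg
Rps6 (chr4:86857348-86857407, minus strand): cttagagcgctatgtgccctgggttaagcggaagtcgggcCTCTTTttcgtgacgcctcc
Rpl6 (chr5:121204461-121204520, plus strand): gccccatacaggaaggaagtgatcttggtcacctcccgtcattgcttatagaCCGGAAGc
Rpl37 (chr15:5116573-5116632, plus strand): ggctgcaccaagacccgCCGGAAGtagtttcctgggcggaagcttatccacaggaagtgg

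At least 1 of these hexamers, searched on the coding strand from 30 bases before to 30 bases after the start, was in 29 of the 60 genes with a promoter (48.3%), against 3332 of 27025 genes of all kinds (12.3%). The ETS core, searched on both strands of 300 bases, was in 25 of the 60 (41.7%), against 9.93% of all genes. The letters are a description of these windows and not a test of a factor.

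Rpl6, a protein of the large subunit, was the most abundant member by CPM over all nuclei. It had 103 CPM (run 230) and 129 CPM (run 232) in the Insulin libraries, against 71.8 CPM (run 230) and 134 CPM (run 232) in the Saline libraries. Rpl41, the smallest ribosomal protein, averaged 95.9 CPM, Rpsa (which also serves as the laminin receptor) 48.7 CPM and Rpl14 47.1 CPM. The large subunit as a whole gave 59.5% of the UMIs of the family. The median member was at 21.5 CPM. At the other end of the detected range, Rpl3l, a muscle paralog of Rpl3, was at 0.754 CPM, Rpl36a at 1.94 CPM, Rpl27 at 2.27 CPM and Rps27 at 3.20 CPM. Levels over genes are not proportional to protein, since the subunits are built from equal numbers of nearly all of these proteins. Per kilobase of the longest annotated transcript the order was different, with Rpl41 at 165 and Rps29 at 104 CPM per kilobase. Their longest transcripts have 582 and 390 bases. UMIs count molecules whatever their length, so this scaling raises short transcripts and is not a ranking of abundance. Of the 80 genes, 69 share at least 1 stretch of 60 bases near their 3′ ends with another annotated gene, pseudogenes included, so their counts depend on how the authors' counting treated reads with several matches.

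The first comparison asks in which cells the family makes up most of the nuclear mRNA. The summed level was lowest in neurons, at 0.161% ± 0.0618 of UMIs (SD, n = 4 libraries), and highest in nuclei annotated Mural Cell, at 0.712% ± 0.332. Between these lay oligodendrocyte precursors (0.182%), astrocytes (0.241%), microglia (0.246%), nuclei annotated Ependymo (0.262%), nuclei annotated Endothelial (0.271%) and oligodendrocytes (0.282%). Every type was lowest in the Saline library of run 230, so these SDs hold a spread between libraries that the types share. The order of neighbours was therefore read within each library. Oligodendrocyte precursors were above neurons, astrocytes above oligodendrocyte precursors, and Mural Cell nuclei above oligodendrocytes in 4 of 4 libraries, as were Ependymo nuclei over microglia. Microglia and astrocytes, with 2 of 4, and oligodendrocytes and Endothelial nuclei, with 2 of 4, did not hold an order. Endothelial nuclei were above Ependymo nuclei in 3 of 4 libraries. These sums carry no test.

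**Figure D1:**
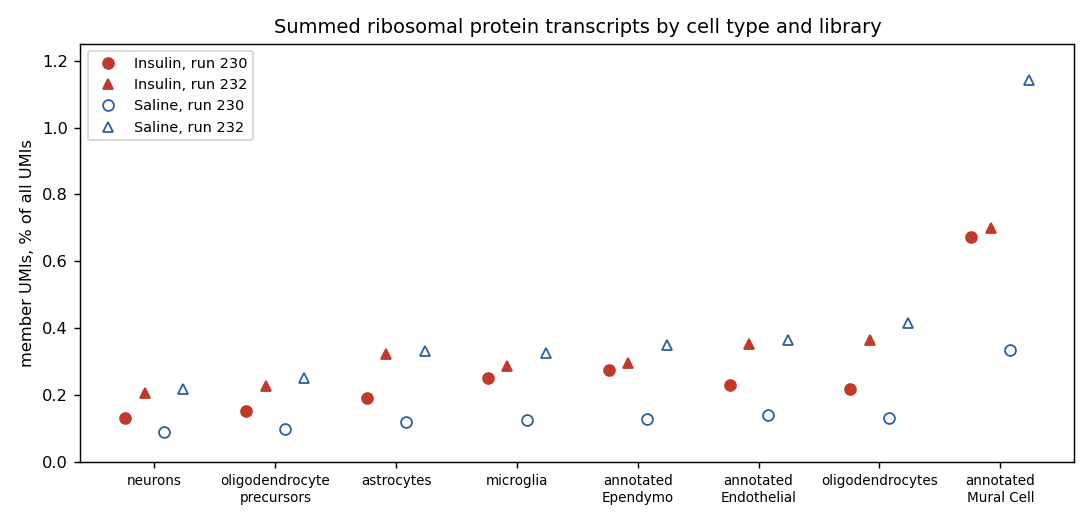
Summed UMIs of the 80 cytosolic ribosomal protein genes as a percentage of all UMIs (vertical axis) in 8 annotated cell types (horizontal axis), with 1 point per library. Red filled points are Insulin and blue open points Saline, circles are run 230 and triangles run 232. Mural Cell nuclei reach 0.673% and 0.698% in the Insulin libraries and 0.333% and 1.14% in the Saline libraries (run 230 and run 232 in each), and the Saline library of run 230 is the lowest in each of the 8 types.

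Mural Cell nuclei had most of the family raised. In the edgeR quasi-likelihood test against the mean of the other 7 types, 53 of 70 tested members were higher and 0 lower in them, against 17.9% of all 14597 genes higher and 15.6% lower. No member had an unadjusted p under 0.05 in the lower direction, and DESeq2 called 55 higher and 0 lower. For cell types and populations, the shares of all genes called by DESeq2 or in other alternative fits are not given here. The median log2 difference of the members was 1.36, against -0.13 over all genes tested. Rps27l, a paralog of Rps27 induced by p53, had 37.3 and 30.8 CPM in the Insulin libraries and 10.6 and 42.6 CPM in the Saline libraries of these nuclei, and averaged 4.76 CPM in the other types (log2 difference 2.34 ± 0.37 SE, edgeR adjusted p = 4.54e-06). All 4 libraries of these nuclei thus lay above the mean of the other types. Rpl29 averaged 151 ± 58.7 CPM (SD, n = 4), against 34.3 CPM in the others (log2 difference 1.91 ± 0.18, edgeR adjusted p = 1.06e-10). Mitochondrially encoded transcripts, a sign of cytoplasm in a nuclear preparation, were also high in these nuclei, at 0.206% to 0.545% of UMIs, against 0.0046% to 0.0079% in neurons, and all 12 tested ones were higher. Haemoglobin genes, a sign of blood, were higher for 4 of 4. The part of these in the level of the ribosomal protein genes was not tested.

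Neurons stood at the other end. Here 53 of 70 members were lower and 3 higher, against 32.7% of all genes lower and 36.7% higher, with a median of -0.71 for the members and 0.02 for all genes. Rplp0, the scaffold of the ribosomal stalk, had 11.7 and 18.0 CPM in the Insulin libraries of neurons and 5.97 and 16.4 CPM in the Saline libraries, against a mean of 38.9 CPM in the other types (log2 difference -1.29 ± 0.10, edgeR adjusted p = 6.21e-14). Rps4x, an X-linked small-subunit protein, averaged 18.4 ± 9.54 CPM in neurons and 55.1 CPM in the others (-1.27 ± 0.07, edgeR adjusted p = 1.29e-17). Rps3, which lies at the mRNA entry of the small subunit, averaged 27.9 ± 9.98 CPM in neurons and 81.4 CPM in the others (-1.26 ± 0.11, edgeR adjusted p = 1.27e-12). The 3 members higher in neurons were Rpl9 (0.41 ± 0.13), Rps21 (0.32 ± 0.11) and Rps13 (0.31 ± 0.10), with edgeR adjusted p of 0.00484, 0.012 and 0.00813. Without the library as a block the count lower in neurons was 31. Neuronal nuclei were also the deepest, with a median of 8445 UMIs, against 1919.5 in Mural Cell nuclei, and the part of depth was not tested.

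Oligodendrocyte precursors and oligodendrocytes, which are stages of a single lineage, differed in direction. In the precursors 38 members were lower and 0 higher, against 15.6% of all genes lower and 24.2% higher, 1 member had an unadjusted p under 0.05 upward, and DESeq2 called 34 lower and 0 higher. Rps29 averaged 37.8 ± 37.6 CPM in the precursors, against 86.5 CPM in the other types (-0.84 ± 0.17, edgeR adjusted p = 8.67e-05), with values of 7.29 and 59.2 CPM in the Insulin libraries and 4.90 and 79.9 CPM in the Saline libraries (run 230 and run 232). Rps27l was lower as well (-0.93 ± 0.37, edgeR adjusted p = 0.0438). In oligodendrocytes 35 members were higher and 1 lower, against 28.4% of all genes higher and 30.1% lower. Among those higher were Rpl11 (0.60 ± 0.19, edgeR adjusted p = 0.00578) and Rps7 (0.57 ± 0.16, edgeR adjusted p = 0.00248). Rpl35 was lower (-0.77 ± 0.28, edgeR adjusted p = 0.0193). The counts were 3 lower in the precursors and 3 higher in oligodendrocytes without the library block, and 7 higher in oligodendrocytes when scaled to library totals.

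Astrocytes, microglia and the nuclei annotated Ependymo and Endothelial differed from the rest in few members. In astrocytes 3 members were lower and 0 higher, against 25.2% and 28.5% of all genes, and they were Rpl35 (-0.82 ± 0.22), Rps18 (-0.37 ± 0.12) and Rpl5 (-0.27 ± 0.10), with edgeR adjusted p of 0.00174, 0.00902 and 0.0217. In Endothelial nuclei 3 were lower and 0 higher, against 18.8% and 22.0% of all genes, namely Rps28 (-0.62 ± 0.21), Rpl29 (-0.43 ± 0.15) and Rpl19 (-0.29 ± 0.12), with edgeR adjusted p of 0.0162, 0.0199 and 0.0498. In Ependymo nuclei 5 were lower and 0 higher, against 20.3% and 20.5% of all genes. Members with an unadjusted p under 0.05 upward numbered 1, 3 and 0 in these types, and DESeq2 called 0, 1 and 0 higher. The Insulin library of run 230 held only 16 Ependymo nuclei. Ependymo nuclei had Rps15a at 0 and 8.28 CPM in the Insulin libraries and at 9.74 and 5.64 CPM in the Saline libraries, against a mean of 21.5 CPM in the other types (-1.62 ± 0.36, edgeR adjusted p = 0.000357). Rpl10a (-0.99 ± 0.19, edgeR adjusted p = 7.78e-05) and Rpl6 (-0.89 ± 0.14, edgeR adjusted p = 1.88e-06) were also lower there. Microglia had 8 lower and 3 higher members, against 11.7% and 23.1% of all genes. Rpl10, an X-linked protein near the peptidyl transferase centre, had 21.6 and 16.02 CPM in the Insulin libraries of microglia and 7.51 and 22.4 CPM in the Saline libraries, against 5.91 CPM in the other types (1.46 ± 0.29, edgeR adjusted p = 9.73e-05). Each of the 4 microglial values lay above that mean. Rps15a (0.70 ± 0.21) and Rpl6 (0.29 ± 0.10) were the others higher, and Rps25 (-0.80 ± 0.25), Rpl7 (-0.68 ± 0.22) and Rplp1 (-0.62 ± 0.15) were the lowest, with edgeR adjusted p of 0.00769, 0.0239, 0.0111, 0.0123 and 0.00164.

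**Figure D2:**
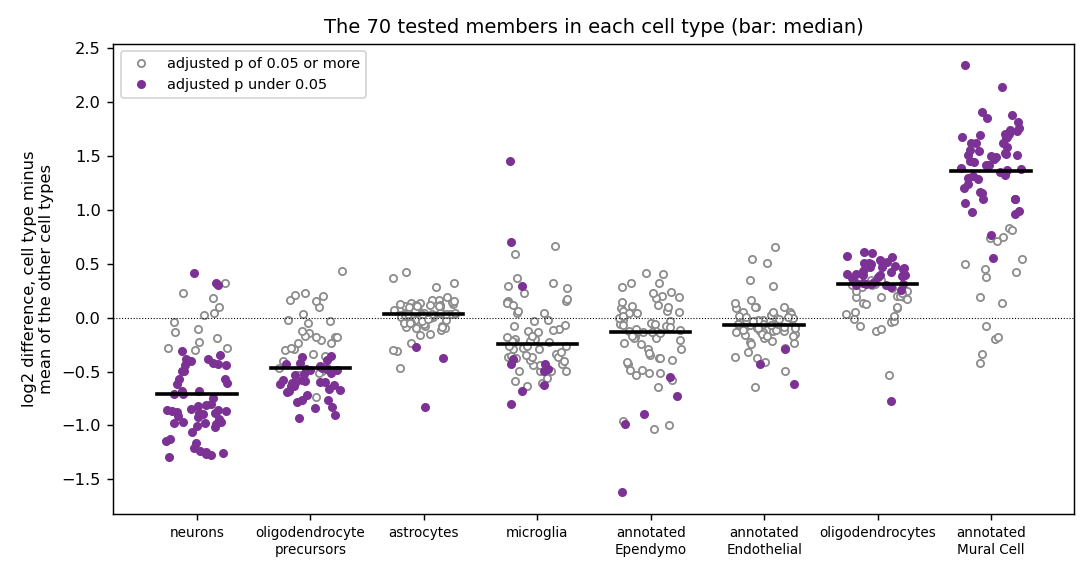
Log2 difference between a cell type and the mean of the other cell types (vertical axis) from the edgeR fit with the library as a block, with 1 point for each of the 70 tested members in each of 8 cell types (horizontal axis, points spread sideways at random). Purple filled points have an adjusted p under 0.05, grey open points do not, and the bar is the median, which is 1.36 in Mural Cell nuclei and -0.71 in neurons.

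Members of the same structure did not all vary alike. The stalk, a lateral arm that recruits elongation factors, is built from Rplp0, Rplp1 and Rplp2. Rplp1 was higher in Mural Cell nuclei (1.69 ± 0.13, edgeR adjusted p = 7.9e-13) and lower in neurons (-1.24 ± 0.09, edgeR adjusted p = 5.6e-15), as was Rplp0. Rplp2 was at -0.18 ± 0.46 in Mural Cell nuclei and 0.10 ± 0.15 in neurons, neither past the threshold, and passed only in oligodendrocytes (0.49 ± 0.21, edgeR adjusted p = 0.046). The difference between stalk members was not tested. Rpl5 and Rpl11 bind 5S ribosomal RNA as a particle that also restrains Mdm2. Rpl11 was higher in Mural Cell nuclei (0.98 ± 0.32, edgeR adjusted p = 0.017) and oligodendrocytes, while Rpl5 passed only in astrocytes. Rps6 followed the sum, with 1.35 ± 0.20 in Mural Cell nuclei (edgeR adjusted p = 1.4e-06) and -0.97 ± 0.09 in neurons (edgeR adjusted p = 7.8e-12). Rps27a, made as a fusion with ubiquitin, stood at 1.44 ± 0.15 in Mural Cell nuclei and -0.97 ± 0.09 in neurons, with edgeR adjusted p of 9e-10 and 3.3e-11. Among X-linked members, Rpl39 was higher in Mural Cell nuclei (1.41 ± 0.21, edgeR adjusted p = 1.4e-06), while Rpl10 was at -0.34 ± 0.51 there. Rpl22, which has roles outside the ribosome, was higher in Mural Cell nuclei (1.56 ± 0.19) and lower in neurons (-0.38 ± 0.08), with edgeR adjusted p of 2.1e-08 and 8.5e-05. Rpl38 passed in no cell type. Rpl3l averaged 3.0 CPM in astrocytes and 0.6 CPM in neurons, and it did not pass the filter on low counts, nor did Rpl36a and Rps27.

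Other gene lists of translation and energy supply were set beside the family in the same fits. Of all genes in these fits, 17.9% were higher and 15.6% lower in Mural Cell nuclei, and 36.7% higher and 32.7% lower in neurons. Of 20 translation factors and similarly regulated mRNAs, 12 were higher and 0 lower in Mural Cell nuclei and 3 higher and 14 lower in neurons. Tpt1, a conserved protein whose mRNA carries the same pyrimidine tract, had a log2 difference of 2.25 ± 0.14 in Mural Cell nuclei and -1.27 ± 0.10 in neurons. Nuclear genes of the respiratory chain were higher for 48 of 71 and lower for 2 in Mural Cell nuclei, and lower for 47 and higher for 6 in neurons. In astrocytes 58 of these 71 were higher, against 28.5% of all genes, while no ribosomal protein gene was. Ribosome biogenesis genes, which make and process ribosomal RNA, were higher for 17 of 30 and lower for 4 in neurons. In Mural Cell nuclei 3 of these 30 were higher and 4 lower. Mitochondrial ribosomal protein genes were higher for 14 of 74 and lower for 3 in Mural Cell nuclei and lower for 35 and higher for 14 in neurons.

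The second comparison sets neuron populations against each other, over the 35 with at least 10 nuclei in every library. The summed level ran from 0.124% in M5.Snypo2 to 0.202% in M34.Esr1/Npy1r, a 1.62-fold range, with M1.GABA apart at 0.478%. Among feeding neurons, M26.Agrp stood at 0.198% ± 0.0701 and M35.Pomc at 0.182% ± 0.0709 (SD, n = 4 each). The order of populations was shared between libraries, with a Spearman's rho of 0.883 to 0.968 over populations between pairs of libraries. Deeper populations had a lower sum, with a rho of -0.77 against the median UMIs per nucleus over 35 populations and -0.75 over the 34 without M1.GABA, as a description over populations that share libraries. M1.GABA held 168 nuclei with a median of 1336.5 UMIs, and mitochondrially encoded genes held 0.0449% to 0.204% of its UMIs, whose part in the level was not tested.

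Over all 35 fits, 83 of 2555 member tests were higher (3.25%) and 138 lower (5.40%), against 13.0% and 8.16% of all gene tests. M1.GABA had 37 of 73 members higher, against 3.46% of all genes. Rps4x had 45.0 and 179 CPM in the Insulin libraries and 17.3 and 152 CPM in the Saline libraries of M1.GABA, against a mean of 19.5 CPM in the other populations (log2 difference 2.12 ± 0.35, edgeR adjusted p = 2.14e-06). Rplp1 had 195 and 147 CPM in the Insulin libraries and 104 and 130 CPM in the Saline libraries, against 28.6 CPM (2.05 ± 0.31, edgeR adjusted p = 1.98e-07). Only the Saline library of run 230 lay below the other populations' mean for Rps4x, and none did for Rplp1. That mean is taken over all 4 libraries. In the Saline library of run 230, neurons as a whole had Rps4x at 6.40 CPM, against the 17.3 CPM of M1.GABA. Without the library block 8 of the 73 were called.

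The other 4 populations with the most members called had nearly all of them lower. The share of all genes higher in each of these 4 is not given here. Over the 35 fits together it was 13.0%. M8.Nr5a1, named for the factor of the ventromedial nucleus, had 23 of 73 members lower, against 18.1% of all genes, and 2 higher. Its Rpl13a averaged 2.91 ± 0.631 CPM, against 5.26 CPM in the other populations (-0.65 ± 0.20, edgeR adjusted p = 0.00572), and its Rpl11 20.4 ± 9.71 CPM, against 29.6 CPM (-0.40 ± 0.09, edgeR adjusted p = 6.79e-05). Rpl9 (0.32 ± 0.10) and Rpl38 (0.28 ± 0.12) were higher, with edgeR adjusted p of 0.00591 and 0.0439. M11.GLUT had 22 lower, against 11.1% of all genes, led by Rps4x (-0.57 ± 0.14, edgeR adjusted p = 0.000595) and Rpl8 (-0.54 ± 0.10, edgeR adjusted p = 2.08e-06). M10.Sim1|Trh had 20 lower, against 10.3% of all genes, led by Rpl23 (-0.69 ± 0.18, edgeR adjusted p = 0.00098) and Rps28 (-0.63 ± 0.20, edgeR adjusted p = 0.0101), and 1 higher, Rpl11 (0.44 ± 0.12, edgeR adjusted p = 0.00179). M9.Fezf1 had 21 lower, against 10.2% of all genes, among them Rplp0 (-0.39 ± 0.12, edgeR adjusted p = 0.0047). Without the library block these 4 populations had 1, 0, 0 and 0 members lower. Agrp neurons, looked up after their values were seen, had 7 of 73 members higher and 0 lower, both below the shares of all genes, 21.4% and 16.5%. Their Rpl6 had 166 and 178 CPM in the Insulin libraries and 105 and 191 CPM in the Saline libraries, against 114 CPM in the other populations (0.43 ± 0.06, edgeR adjusted p = 2.46e-09).

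**Figure D3:**
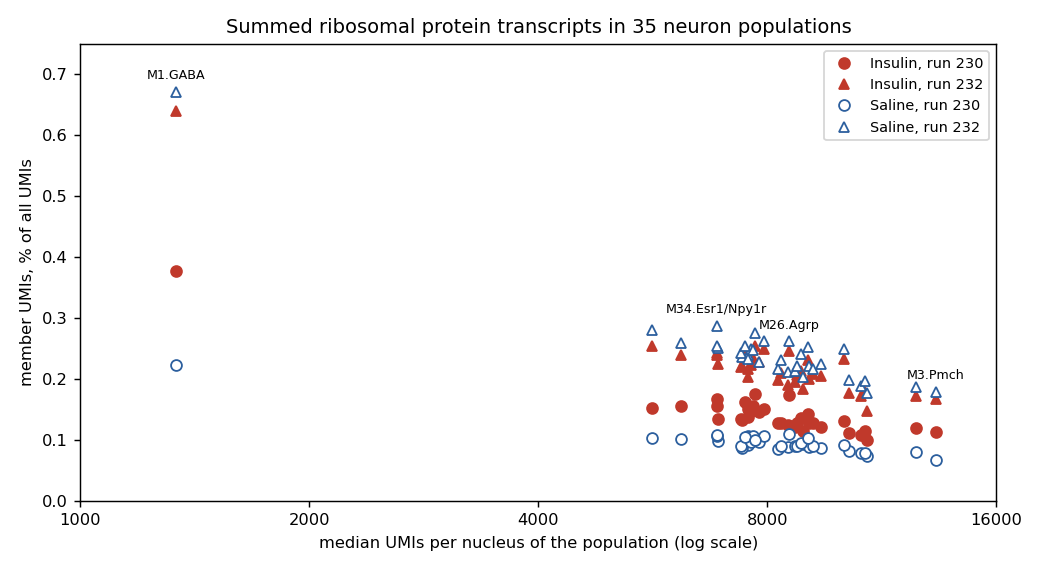
Summed UMIs of the family as a percentage of all UMIs (vertical axis) against the median UMIs per nucleus of the population (horizontal axis, log scale) for 35 neuron populations, with 4 points per population, 1 per library. Red filled points are Insulin and blue open points Saline, circles are run 230 and triangles run 232. M1.GABA lies apart at the left, between 0.223% and 0.672%.

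How far members moved together over the populations depended on M1.GABA, as a description of points that share 4 libraries. The Pearson correlation of a member with the sum of the others across the 35 populations had a median of 0.92 over members and was above 0.8 for 48 of them. Without M1.GABA, over 34 populations, the median was 0.64 and 13 members were above 0.8. With all 35 populations, Rps13 (-0.35), Rpl3l (-0.34), Rpl9 (-0.32), Rpl35 (-0.29) and Rpl23a (-0.28) had the lowest values. Without M1.GABA, Rps13 was at 0.69 and Rpl9 at 0.29, while Rpl3l stayed at -0.37, Rpl35 at -0.04 and Rpl23a at 0.01.

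The third comparison, Insulin against Saline with the run as a block, is the one the treatment implies. No member passed the threshold anywhere. Counts at an unadjusted p under 0.05 are given below without the share of all genes at that p. They are not read as a result about the family. In all annotated nuclei the summed level was 0.152% in the Insulin library of run 230 and 0.233% in that of run 232, against 0.104% and 0.264% in the Saline libraries of the same runs. The ratio of Insulin to Saline was therefore 1.45 in run 230 and 0.883 in run 232. This opposite direction of the sum was found in 8 of 8 cell types and 35 of 35 populations, with ratios of 1.44 to 2.15 in run 230 and 0.611 to 0.972 in run 232 over cell types. The difference between runs was not tested, since each run holds 1 library of each treatment. By member, 63 of 77 went opposite ways in the runs, 11 were higher in the Insulin library of both runs and 3 lower in both. The shares of all genes in these directions are not given here. The members share the same 4 libraries, so a shift of a single library moves many of them together.

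**Figure D4:**
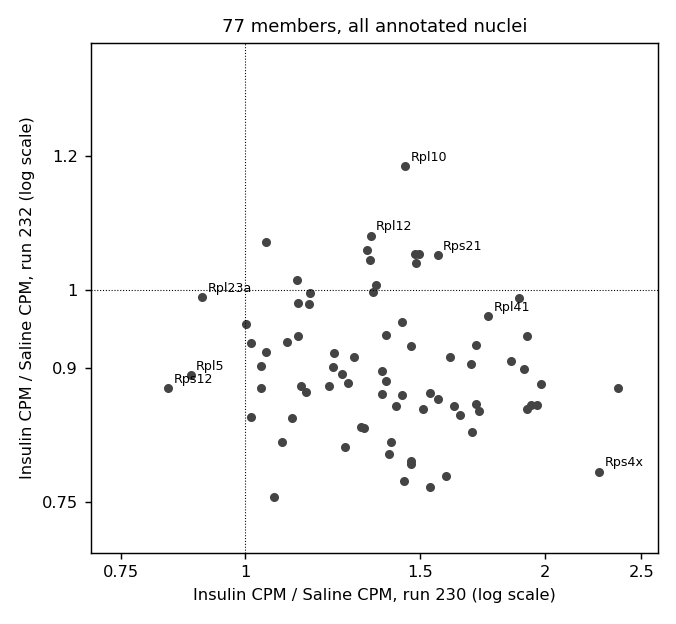
Ratio of Insulin to Saline CPM in run 232 (vertical axis) against the same ratio in run 230 (horizontal axis), both on log scales, with 1 point for each of the 77 members with at least 40 UMIs in all annotated nuclei. Dotted lines mark a ratio of 1. The lower right of the plot, above 1 in run 230 and below 1 in run 232, holds 63 of the 77 points.

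In all nuclei 0 of 77 members were called, against 0.0% of 21190 genes, and 0 had an unadjusted p under 0.05. Their median log2 difference was 0.13, against 0.01 over all genes, and 63 of 77 were above 0. The share of all genes above 0 is not given here. The members with the smallest p upward were Rpl10, Rpl10a and Rps21. Rpl10 had 6.16 and 6.998 CPM in the Insulin libraries, against 4.26 and 5.91 CPM in the Saline libraries of run 230 and run 232 (0.38 ± 0.19, edgeR adjusted p = 0.794). Both Insulin libraries thus lay above both Saline libraries, by less than the test can tell from the spread. Rpl10a had 30.7 and 45.4 CPM in the Insulin libraries, against 16.3 and 45.9 CPM in the Saline libraries (0.44 ± 0.22, edgeR adjusted p = 0.798). Rps21 had 15.2 and 18.1 CPM against 9.73 and 17.2 CPM in the same order of groups (0.35 ± 0.18, edgeR adjusted p = 0.801). Downward, Rpl5 had 31.0 and 40.5 CPM in the Insulin libraries, against 35.1 and 45.4 CPM in the Saline libraries (-0.18 ± 0.10, edgeR adjusted p = 0.814), lower within each run. Rps12 (-0.23 ± 0.20) and Rpl13a (-0.16 ± 0.21) followed, with edgeR adjusted p of 0.864 and 0.911. Rps6 had 23.6 and 20.8 CPM in the Insulin libraries, against 14.3 and 24.6 CPM in the Saline libraries (0.23 ± 0.23), again with opposite signs in the runs.

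In neurons 0 of 77 members were called, against 0.0% of 20275 genes, with 6 at an unadjusted p under 0.05, all higher. Rpl41 had 76.3 and 96.3 CPM in the Insulin libraries of neurons, against 40.3 and 91.2 CPM in the Saline libraries (0.49 ± 0.17, edgeR adjusted p = 0.427). Rplp0 (0.53 ± 0.20, edgeR adjusted p = 0.472) and Rpl10a (0.46 ± 0.18, edgeR adjusted p = 0.493) came next. On the lower side were Rpl5 (-0.18 ± 0.11), Rps12 (-0.29 ± 0.20) and Rpl34 (-0.10 ± 0.18), with edgeR adjusted p of 0.673, 0.723 and 0.907. The values of Rpl41 and Rplp0 lay above those of Saline in both runs, and the larger step was in run 230.

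Other cell types gave the same count of 0. In oligodendrocyte precursors 0 of 64 members were called, against 0.444% of 11263 genes, with 4 higher and 1 lower at an unadjusted p under 0.05. Rps3 had 56.7 and 41.8 CPM in their Insulin libraries, against 19.6 and 35.01 CPM in their Saline libraries (0.75 ± 0.27, edgeR adjusted p = 0.385), followed by Rpl41 (0.46 ± 0.20, edgeR adjusted p = 0.616) and Rps13 (0.86 ± 0.39, edgeR adjusted p = 0.702). Rpl34 (-1.18 ± 0.54), Rpl17 (-0.46 ± 0.28) and Rpl3 (-0.64 ± 0.44) were on the lower side, with edgeR adjusted p of 0.705, 0.963 and 1.000. In astrocytes 0 of 76 were called, against 0.0935% of 13897 genes, with 13 higher and 0 lower at an unadjusted p under 0.05. Rpl41 had 146 and 154 CPM in the Insulin libraries of astrocytes, against 74.4 and 144 CPM in their Saline libraries (0.50 ± 0.17, edgeR adjusted p = 0.385). Rps2 (1.49 ± 0.55) and Rpl10a (0.65 ± 0.24) were at edgeR adjusted p of 0.451 and 0.453, and Rps27 (-0.58 ± 0.46), Rpl23a (-0.44 ± 0.35) and Rpl21 (-0.20 ± 0.19) at 0.882, 0.882 and 0.908.

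Microglia had 0 of 54 members called, against 0.0% of 8527 genes, with 1 higher and 0 lower at an unadjusted p under 0.05. Rpl29 had 59.3 and 44.9 CPM in their Insulin libraries, against 10.0 and 22.4 CPM in their Saline libraries (1.56 ± 0.57, edgeR adjusted p = 0.998), the widest separation among the microglial members named. Rpl18 (0.87 ± 0.47), Rpl12 (1.45 ± 0.82), Rps20 (-0.53 ± 0.48), Rps28 (-0.70 ± 0.77) and Rps26 (-0.42 ± 0.47) were all at an edgeR adjusted p of 0.998. Ependymo nuclei had 0 of 38 called, against 0.0349% of 5732 genes, with 1 higher and 0 lower at an unadjusted p under 0.05. Rps19 had 81.0 and 48.3 CPM in their Insulin libraries, against 9.74 and 28.2 CPM in their Saline libraries (1.38 ± 0.64, edgeR adjusted p = 0.999). Rpl41, Rplp1 and Rpl37a were also named there, at 0.75 ± 0.43, 0.76 ± 0.48 and -0.91 ± 0.64, all with an edgeR adjusted p of 0.999. Rps29 was at 0 in both libraries of run 230 and at 134 CPM in the Insulin library and 195 CPM in the Saline library of run 232 of Ependymo nuclei, and Rpl28 likewise at 0, and at 42.8 and 67.7 CPM, so no fold is given for these.

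Nuclei annotated Endothelial had 0 of 67 members called, against 0.0% of 11427 genes, with 2 higher and 0 lower at an unadjusted p under 0.05. Rps9 had 97.1 and 84.6 CPM in their Insulin libraries, against 46.0 and 66.9 CPM in their Saline libraries (0.68 ± 0.23, edgeR adjusted p = 0.868). Rpl29 (0.83 ± 0.32) and Rpl19 (0.56 ± 0.28) were at edgeR adjusted p of 0.868 and 0.873, and Rps18 (-0.38 ± 0.31) and Rpl31 (-0.33 ± 0.43) at 0.912 and 0.939. In oligodendrocytes 0 of 68 were called, against 0.0% of 11476 genes, with 3 higher and 1 lower at an unadjusted p under 0.05. Rpl29 (0.67 ± 0.27), Rpl8 (0.56 ± 0.24), Rpl10a (0.56 ± 0.24), Rpl38 (-0.83 ± 0.38), Rpl5 (-0.50 ± 0.24) and Rpl3 (-0.56 ± 0.32) were all at an edgeR adjusted p of 0.993 there. In Mural Cell nuclei 0 of 52 were called, against 0.0% of 5855 genes, with 0 higher and 2 lower at an unadjusted p under 0.05. Rpl35a had 6.22 and 116 CPM in their Insulin libraries, against 5.31 and 275 CPM in their Saline libraries (-1.13 ± 0.45), and Rps10 (-0.96 ± 0.39), Rpl21 (-0.95 ± 0.45), Rpl10a (0.61 ± 0.52), Rpl17 (0.43 ± 0.52) and Rpl18 (0.31 ± 0.47) were named with it, all at an edgeR adjusted p of 1.000. DESeq2 called 0 members in each of these types.

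Across the 35 populations 0 of 2024 member tests were called, against 0.13% of 359137 gene tests, with 104 higher and 13 lower at an unadjusted p under 0.05, a lowest edgeR adjusted p of 0.0825, and 0 called by DESeq2. The share of all gene tests at that unadjusted p is not given here. Without the Saline library of run 232, and then without a block, calls did appear, all in the higher direction, with 35 of 77 members in astrocytes, against 3.69% of all genes higher in the same fit, 26 of 70 in oligodendrocytes, against 1.68%, and 12 of 70 in Endothelial nuclei, against 0.467%. There were 2 such calls in Mural Cell nuclei, against 0.139% of all genes, 1 in microglia, against 0.0902%, and 1 in Ependymo nuclei, against 0.127%. Over the populations 176 of 2105 member tests were higher, against 0.598% of all gene tests. That fit sets the Saline library of run 230 alone against Insulin libraries of both runs. Without the Saline library of run 230, 14 of 2206 population tests of members were lower, against 0.0417% of all gene tests. Without the Insulin library of run 232, 3 of 2130 population tests were lower, against 0.0165%, and 1 member each in Endothelial nuclei, against 0.121% of all genes, and oligodendrocyte precursors, against 0.86%. Genes of the mTOR and S6 kinase arm, 14 in number, had 0 calls and a median of 0.02 in all nuclei, and Rps6kb1, the kinase of Rps6, was at -0.07 ± 0.08.

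In calls of members in all nuclei, the runs differed more than the treatments. This comparison was chosen after the values were seen, and it sets run 232 against run 230 with the treatment in the fit. Both libraries of run 232 lay above both libraries of run 230 in the summed level in 8 of 8 cell types and 35 of 35 populations. The ratio of run 232 to run 230 in all nuclei was 1.54 between Insulin libraries and 2.53 between Saline libraries. Over cell types this ratio ran from 1.04 to 1.69 between Insulin libraries and from 2.43 to 3.43 between Saline libraries. Within run 230, Insulin over Saline was 1.44 to 2.15 over cell types. In Mural Cell nuclei the Insulin libraries were at 0.673% (run 230) and 0.698% (run 232), against 0.333% in the Saline library of run 230. The runs thus did not differ more than the treatments in every summed level. In all nuclei 27 of 77 members were higher in run 232, against 1.58% of all genes, and none lower. The share of all genes lower in that fit is not given here.

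**Figure D5:**
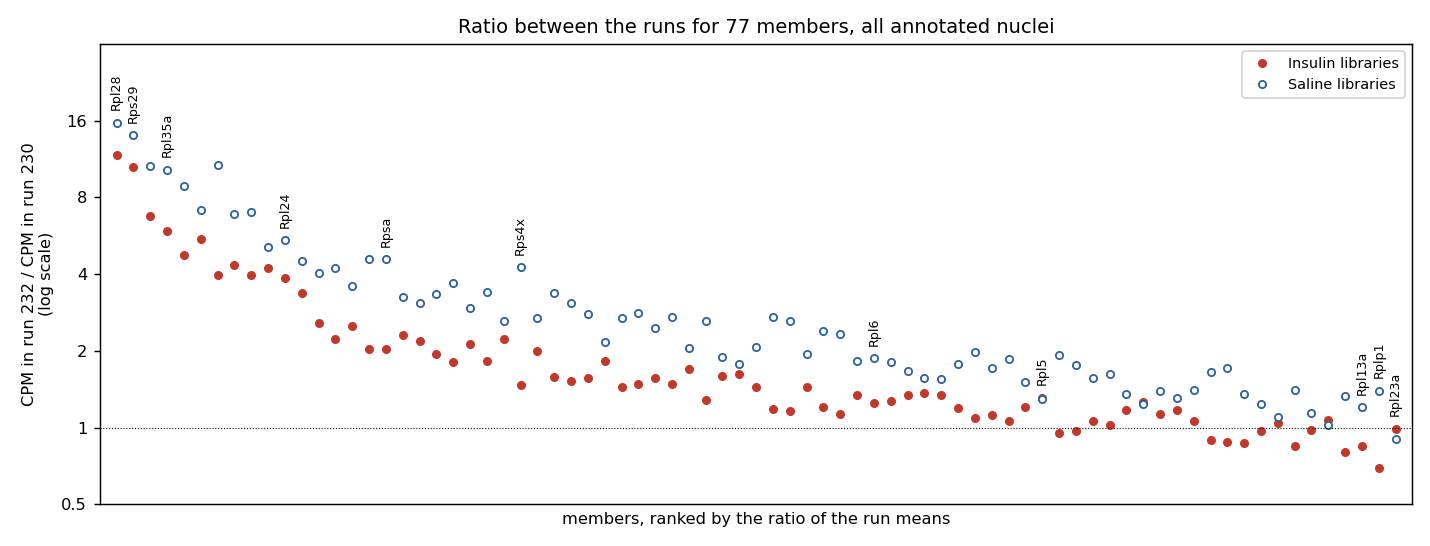
Ratio of CPM in run 232 to CPM in run 230 (vertical axis, log scale) in all annotated nuclei for the 77 members with at least 40 UMIs, ranked along the horizontal axis by the ratio of the run means. Red filled points compare the Insulin libraries and blue open points the Saline libraries. A few members are labelled, with Rpl28 at 13.5 and Rps29 at 12.2 (ratios of the run means) at the left, and the dotted line marks a ratio of 1.

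The size of the run difference varied widely among members. The ratio had a median of 1.70 and ran from 0.946 for Rpl23a to 13.5 for Rpl28, and it was over 4 for 11 members and over 2 for 29. Of the 17370 genes at least as abundant as the lowest of these members, 2.17% were over 2 and 0.432% over 4. Rpl28 (ENSMUSG00000030432, chr7:4792874-4795066, plus strand, GRCm38), whose promoter is shown above, had 32.1 CPM in the Insulin library and 35.02 CPM in the Saline library of run 232, against 2.74 and 2.23 CPM in those of run 230 (log2 difference 3.71 ± 0.17, edgeR adjusted p = 0.000776). Rps29 (ENSMUSG00000034892, chr12:69157722-69159186, minus strand) had 68.6 and 81.6 CPM in the Insulin and Saline libraries of run 232, against 6.50 and 5.83 CPM in those of run 230 (3.55 ± 0.15, edgeR adjusted p = 0.000519). For both genes the libraries of a run lay close together whatever the treatment, and the runs did not overlap.

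Members of the same complex had different ratios, and the differences between members were not tested. Rplp1 had a ratio of 0.969, while Rplp0 had 1.64 and Rps27a 2.91. Rpsa had 67.7 and 76.9 CPM in the Insulin and Saline libraries of run 232, against 33.3 and 16.8 CPM in those of run 230 (1.56 ± 0.27, edgeR adjusted p = 0.041). Rpl11 rose by 0.94 ± 0.12 on the log2 scale in run 232 (edgeR adjusted p = 0.023), while its partner Rpl5, at 0.33 ± 0.10, did not pass. Rpl13a was at -0.03 ± 0.21 and Rps6 at 0.25 ± 0.23. Rpl35a, at 2.91 ± 0.21 (edgeR adjusted p = 0.0044), was also called in astrocytes, neurons, Endothelial nuclei, Mural Cell nuclei, oligodendrocytes and their precursors. Within the family, the ratio showed little relation to the share of 60-base stretches found in other genes (Spearman's rho -0.11 over members) or to the length of the longest transcript (-0.08), as descriptions. Of the members with a promoter in the table, which held 17 of the 29 with a ratio over 2, a pyrimidine hexamer stood near the start of 10 of those 17 (58.8%) and of 18 of 40 with a lower ratio (45.0%).

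Calls in the comparison of runs differed in number between cell types, while the median member was higher in run 232 in each of them, with log2 medians from 0.75 in microglia and neurons to 1.17 in oligodendrocytes. Members higher in run 232 numbered 46 of 77 in neurons, against 5.33% of all genes, 31 of 64 in oligodendrocyte precursors, against 5.1%, 43 of 76 in astrocytes, against 2.97%, and 32 of 68 in oligodendrocytes, against 1.37%. They numbered 12 of 67 in Endothelial nuclei, against 0.21% of all genes, 5 of 52 in Mural Cell nuclei, against 0.171%, 1 of 38 in Ependymo nuclei, against 0.209%, and 0 of 54 in microglia, against 0.0235%. The median was 0.98 in Mural Cell nuclei, with 45 of 52 members above 0, and 0.88 in Ependymo nuclei, with 34 of 38 above 0. In microglia 48 of 54 members were above 0, 14 had an unadjusted p under 0.05 and DESeq2 called 0. Over all genes the median was 0.0049 in Mural Cell nuclei, 0.011 in Ependymo nuclei and 0.029 in microglia. The shares of all genes above 0 or at that unadjusted p are not given here. Over the 35 populations 673 of 2024 member tests were higher, against 1.8% of all gene tests, in 33 populations. No member was lower in run 232 in any of these fits. Over the populations 7206 of the 359137 gene tests were lower in run 232 and 6460 higher. The shares of all genes lower in the fits of cell types are not given here. The log2 ratios of members in neurons and astrocytes had a Pearson correlation of 0.94 over 77 members, as a description of 2 cell types from the same 4 libraries. Rps29 had 53.4 and 59.3 CPM in neurons of the Insulin and Saline libraries of run 232, against 5.74 and 5.22 CPM in run 230, and 126 and 120 CPM in astrocytes of run 232, against 9.53 and 10.9 CPM in run 230.

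Genes outside the pattern were set beside the family. Fau had 49.5 and 53.8 CPM in the Insulin and Saline libraries of run 232, against 21.8 and 10.5 CPM in those of run 230. Rps3a1 had 30.1 and 33.95 CPM in run 232, against 15.4 and 10.5 CPM in run 230. Of the comparison lists, respiratory chain genes had 10 of 74 higher and 1 lower in run 232 with a median log2 difference of 0.57, translation factors 2 of 20 higher (0.36), mitochondrial ribosomal protein genes 1 of 76 higher (0.32), biogenesis genes 1 of 30 higher (0.10) and the mTOR arm 0 of 14 (0.06). The median of the ribosomal protein genes was 0.75 and that of all genes 0.02. Of all 21190 genes in this fit, 1.58% were higher in run 232. A count of 0 or 1 in a list, in either direction, is not read as a result about that list. The single biogenesis gene was Fbl, the methyltransferase fibrillarin, with 27.1 and 31.4 CPM in run 232, against 3.15 and 2.86 CPM in run 230. Mitochondrially encoded transcripts had 0 of 13 higher and 1 lower in run 232.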

How the data were processed

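Single-nucleus RNA was measured in 4 libraries of mouse mediobasal hypothalamus, Insulin and Saline in each of 2 runs. The authors deposited 1 matrix of UMI counts, whole numbers with no normalization, and a table with the cell type, neuron cluster, treatment and run of each nucleus. Per the submitters' processing notes, Cell Ranger and GRCm38 were used, and their versions are not given in the sources used here. Per the labels, nuclei were cleaned by FACS and libraries made with 10x Genomics 3′ chemistry.

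Of 36534 annotated nuclei 36523 matched a barcode of the matrix. Totals were 66050156 and 63590421 UMIs in the Insulin libraries and 69996918 and 71391593 in the Saline libraries (run 230, then run 232). Counts were summed per library and annotated group. Nuclei annotated as doublets or left unassigned were kept out of the cell types, and no doublet caller was run. All genes were fitted with edgeR 4.0.16 in R 4.3.3 (quasi-likelihood test, TMM, filterByExpr), with Benjamini-Hochberg adjustment over all genes tested and a threshold of 0.05. The treatment fit had the run as a block, and the cell type and population fits had the library as a block. Populations needed 10 nuclei in every library. The alternatives were other scalings, no filter, no block, DESeq2 1.42.0 and leaving out each library.

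The run column of the deposited table pairs an Insulin with a Saline library, and the replicate numbers of the labels could not be tied to the columns. Across genes, the log2 difference between runs in the Insulin libraries correlated with that in the Saline libraries at a Pearson r of 0.695 in all nuclei, 0.733 in neurons and -0.053 in microglia. Treatment differs within a run and the sex-linked Xist differs between runs, so the libraries came from different animals. The number of mice per library is not in the labels, and p-values measure the spread between these libraries. Intervals and limits cover counting error only.

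The members and gene lists were chosen with earlier results of these data known. The comparison of run 232 with run 230, the lists of neutrophil and simple epithelium genes, the correlation without M1.GABA and the removal of shared barcodes were added after seeing the data. Named genes were, per cell type, the 3 highest and 3 lowest members past the threshold, and, in the 5 populations with most calls, the 2 highest and 2 lowest. For the treatment they were the 3 with the smallest p in each direction in each group. The members of the stalk, the 5S particle, the X chromosome and the paralog pairs were always described, as were Rps6, Rps27a, Rpsa, Rpl22, Rpl38, Rpl13a and the 5 highest and 5 lowest members. Some genes that this rule names are not reported here. The fits were tested on data simulated with a fixed spread and no run effect, in which 200 genes were changed. In the astrocyte fit and the treatment fit of all nuclei, the share recovered was 1.0 for log2 changes of 1 and of 2. In the M1.GABA fit these shares were 0.371 and 0.66. False calls numbered 7, 6 and 24 in the same order of fits. The spread of the real libraries was not simulated, so these shares do not give the recovery in the real data.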

Additional observations from a re-analysis of the deposited data

Results flagged for a closer look

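The ratio of Insulin to Saline for the summed members in all annotated nuclei was 1.45 in run 230 and 0.883 in run 232. Each ratio sets 1 library against 1 library, so treatment and a difference between single libraries cannot be told apart. Insulin was above Saline in run 230 and below it in run 232 in 8 of the 8 cell types and in 35 of the 35 populations. This difference was not tested, and the cell types and populations share the same 4 libraries.

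The 4633 barcodes of the matrix without annotation, which enter no comparison, held 89291 member UMIs among 37148305 UMIs, or 0.240%. A count of 0 there would have allowed a share of up to 8.08e-06%. No group here held 4 samples of the same treatment, so no library was tested for standing apart within a treatment.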

How the results depend on the processing

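The summed levels of the family moved by less than 1 SD between the 4 libraries under each alternative that kept all of them, an SD that includes the spread between runs. Counts of called members depended on the fit. The shares of all genes are not given beside the counts below, so a change in a count is not read as particular to the family. Calls over all genes can change as well. For Insulin against Saline in astrocytes they were 3 higher and 10 lower in the main fit, and 52 and 56 with library totals. With no filter on low counts, the members higher in run 232 numbered 41 (27 as reported) in all annotated nuclei, 5 (0 as reported) in microglia, 3 (1 as reported) in annotated Ependymo nuclei, 32 (12 as reported) in annotated Endothelial nuclei and 15 (5 as reported) in annotated Mural Cell nuclei. Members higher than in the others numbered 3 (0 as reported) in astrocytes and 1 (3 as reported) in microglia. The members lower than in the others then numbered 17 (8 as reported) in microglia, 86 (138 as reported) in the 35 populations together, 11 (23 as reported) in M8.Nr5a1 and 9 (21 as reported) in M9.Fezf1. With the run alone in the fit, the members higher in run 232 numbered 20 (46 as reported) in neurons, 20 (31 as reported) in oligodendrocyte precursors and 22 (43 as reported) in astrocytes. With DESeq2 and the treatment in the fit, the members higher in run 232 numbered 3 (31 as reported) in oligodendrocyte precursors, 21 (43 as reported) in astrocytes, 0 (1 as reported) in annotated Ependymo nuclei, 15 (32 as reported) in oligodendrocytes, 1 (5 as reported) in annotated Mural Cell nuclei and 128 (673 as reported) in the 35 populations together. With library totals in place of TMM, the members higher in run 232 numbered 2 (0 as reported) in microglia, 0 (1 as reported) in annotated Ependymo nuclei and 0 (5 as reported) in annotated Mural Cell nuclei. Members higher than in the others numbered 5 (3 as reported) in microglia, 5 (0 as reported) in annotated Endothelial nuclei, 7 (35 as reported) in oligodendrocytes and 130 (83 as reported) in the 35 populations together. The members lower than in the others then numbered 11 (3 as reported) in astrocytes, 3 (8 as reported) in microglia, 0 (3 as reported) in annotated Endothelial nuclei, 3 (1 as reported) in oligodendrocytes, 248 (138 as reported) in the 35 populations together, 47 (23 as reported) in M8.Nr5a1, 37 (22 as reported) in M11.GLUT and 44 (21 as reported) in M9.Fezf1. Members called in either direction numbered 378 (221 as reported) in the 35 populations together. With RLE size factors, the members higher in run 232 numbered 0 (1 as reported) in annotated Ependymo nuclei. The members lower than in the others then numbered 5 (3 as reported) in astrocytes. Without nuclei whose barcode is in 2 or more libraries, the members higher in run 232 numbered 0 (5 as reported) in annotated Mural Cell nuclei. With no replicate block (the library left out of the fit), the members higher than in the other groups numbered 0 (3 as reported) in neurons, 3 (35 as reported) in oligodendrocytes, 12 (83 as reported) in the 35 populations together and 8 (37 as reported) in M1.GABA. The members lower than in the others then numbered 31 (53 as reported) in neurons, 3 (38 as reported) in oligodendrocyte precursors, 1 (3 as reported) in astrocytes, 0 (8 as reported) in microglia, 3 (5 as reported) in annotated Ependymo nuclei, 0 (3 as reported) in annotated Endothelial nuclei, 1 (138 as reported) in the 35 populations together, 1 (23 as reported) in M8.Nr5a1, 0 (22 as reported) in M11.GLUT, 0 (20 as reported) in M10.Sim1|Trh and 0 (21 as reported) in M9.Fezf1. Members called numbered 82 (205 as reported) in all cell types. Members called in either direction numbered 13 (221 as reported) in the 35 populations together. With DESeq2 and the library as replicate block, the members higher than in the other groups numbered 1 (0 as reported) in annotated Endothelial nuclei. The members lower than in the others then numbered 7 (3 as reported) in astrocytes.

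Leaving out each library in turn, with the run alone in the fit, the members higher in run 232 ranged from 28 to 59 in all annotated nuclei, 14 to 31 in oligodendrocyte precursors, 18 to 54 in astrocytes, 0 to 16 in microglia, 0 to 2 in annotated Ependymo nuclei, 15 to 39 in annotated Endothelial nuclei, 21 to 51 in oligodendrocytes, 8 to 21 in annotated Mural Cell nuclei and 297 to 963 in the 35 populations together. Leaving out each library in turn, the members higher than in the other groups ranged from 3 to 5 in neurons, 0 to 1 in astrocytes, 1 to 4 in microglia, 0 to 1 in annotated Endothelial nuclei, 22 to 38 in oligodendrocytes, 55 to 76 in the 35 populations together and 15 to 34 in M1.GABA. Those lower than in the other groups ranged from 25 to 37 in oligodendrocyte precursors, 1 to 4 in astrocytes, 2 to 8 in microglia, 3 to 5 in annotated Ependymo nuclei, 0 to 3 in annotated Endothelial nuclei, 0 to 1 in oligodendrocytes, 73 to 116 in the 35 populations together, 10 to 20 in M8.Nr5a1, 5 to 16 in M10.Sim1|Trh and 11 to 20 in M9.Fezf1. Those called in either direction ranged from 132 to 192 in the 35 populations together. For Insulin against Saline, leaving out each library without the replicate block gave 0 to 253 called members over all nuclei, cell types and populations, with 253 without the Saline library of run 232, 14 without the Saline library of run 230 and 5 without the Insulin library of run 232. The fit with the run as replicate block called 0, as did the fit without it.

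Among single members, the log2 difference between Insulin and Saline in annotated Ependymo nuclei turned to 0.24 for Rps29 and 0.17 for Rpl28 under DESeq2 with the run as replicate block, both being at 0 in the libraries of run 230. Leaving out each library in turn was done without the replicate block. Such a fit leaves a treatment with a library of a single run, against libraries of both runs. In those fits these differences of named members changed sign between the lowest and highest value. In all annotated nuclei they were Rpl10a -0.25 to 1.19 and Rps21 -0.023 to 0.74. In neurons they were Rpl41 -0.049 to 1.06, Rplp0 -0.12 to 1.27, Rpl10a -0.21 to 1.23 and Rpl34 -1.28 to 1.13. In oligodendrocyte precursors they were Rpl34 -3.74 to 0.00058 and Rpl3 -3.22 to 0.93. In astrocytes they were Rpl10a -0.16 to 1.74 and Rpl21 -2.48 to 1.94. In microglia they were Rps28 -2.93 to 0.16 and Rps26 -0.96 to 0.17. In annotated Ependymo nuclei they were Rps29 -7.53 to 8.08 and Rpl28 -6.03 to 0.19. In annotated Endothelial nuclei they were Rps18 -0.70 to 0.054 and Rpl31 -0.73 to 0.20. In oligodendrocytes they were Rpl8 -0.087 to 1.33, Rpl10a -0.12 to 1.42, Rpl38 -2.55 to 0.30 and Rpl3 -2.70 to 1.71. In annotated Mural Cell nuclei they were Rpl10a -0.11 to 1.94, Rpl17 -0.34 to 1.18, Rpl18 -0.48 to 1.46, Rpl35a -4.49 to 3.55, Rps10 -2.58 to 0.62 and Rpl21 -3.20 to 2.41. The cause of these changes was not tested. Each run holds 1 library per treatment, so the spread rests on 1 residual degree of freedom with the block. Run and sex cannot be told apart. In the comparison of runs 54 members passed the filter in microglia, 38 in Ependymo nuclei and 52 in Mural Cell nuclei, and the part of depth in their fewer calls was not tested.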

Other observations

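The 1116 nuclei that the authors left unassigned, with a median of 827.5 UMIs, held the highest share of ribosomal protein transcripts of any annotated class. Their summed level was 2.57% and 2.12% in the Insulin libraries and 2.22% and 4.23% in the Saline libraries (run 230, then run 232). Genes of other cells moved with the run there. The neutrophil calprotectin gene S100a9 stood at 4223 and 8070 CPM in the Insulin and Saline libraries of run 232, and at 377 and 258 CPM in those of run 230. The epithelial keratin gene Krt19 had 3.999 CPM in run 232 with Insulin and was listed at 0 in run 232 with Saline, while it had 2888 and 2392 CPM in the Insulin and Saline libraries of run 230. The 10 neutrophil genes summed to 9827 and 18221 CPM in the Insulin and Saline libraries of run 232, and to 1255 and 999 CPM in those of run 230. The 8 simple epithelium genes summed to 99.99 and 7.12 CPM in the Insulin and Saline libraries of run 232, and to 9179 and 8465 CPM in those of run 230. Both lists were chosen after these values were seen, and the part of such cells in the family's level was not tested. Mitochondrially encoded genes held 4.31% and 0.803% of UMIs in the Insulin libraries and 3.81% and 1.72% in the Saline libraries (run 230, then run 232).

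In these unassigned nuclei the UMIs of Rps29 came to 86.0% and 85.7% of those of Rpl41 in the Insulin and Saline libraries of run 232, and to 1.55% and 1.48% in those of run 230. In neurons the same percentages were 55.5% and 65.0% in run 232, and 7.52% and 13.0% in run 230. Both classes thus had more Rps29 UMIs per Rpl41 UMI in run 232, as a description with no test.

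The 423 nuclei annotated as doublets had a summed level of 0.112% and 0.162% in the Insulin libraries and 0.0734% and 0.178% in the Saline libraries (run 230, then run 232).

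Rplp2, a protein of the ribosomal stalk, was named here after its values were seen in the population M27.Trh. It stood at 29.5 and 16.1 CPM in the Insulin libraries and 26.3 and 18.1 CPM in the Saline libraries, against a mean of 9.25 CPM over the other populations (log2 1.30 ± 0.26, SE, edgeR adjusted p = 4.58e-05). All 4 libraries of M27.Trh lay above that mean.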
